A study of Mus musculus with 21 samples.

Results

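Genes of the hypoxia-inducible factor (HIF) response and of glycolysis were followed through a time course of mouse mammary organoids with and without a mutant DNA break sensor. The 47 genes were chosen by symbol from those known to be induced by HIF or to act in glycolysis. The rule holds no measured value, but the genes were chosen with earlier results of these data known. All 47 were found among the 55536 gene IDs of the count table. They comprise 5 regulators of HIF, 3 transporters of glucose and lactate, 15 glycolytic enzymes, 3 kinases that set glycolytic flux and 21 other HIF targets. Car9 and Car12 are the mouse symbols of the listed Ca9 and Ca12, and for Aldoa, which has 2 gene IDs, the longer gene model was taken. All 47 passed the filter on low counts. Of these, 44 had every library of all 6 groups above the level of the filter, 0.214 CPM (counts of a gene per 1e+06 counts of the library, after TMM scaling). Loxl2 reached it only in WT at day 14 and day 28, Slc2a3 only in WT, and Ndufa4l2 in all groups but WT at day 0. These 3 genes passed the filter through the groups in which they are high.

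The organoids were grown from primary mammary epithelium and carried neuT, an oncogenic variant of the rat homologue of Erbb2 (HER2), a growth factor receptor. One set of cultures was wild type for Mre11 (WT), and the other was homozygous for its ATLD1 allele (Mre11 ATLD1/ATLD1, here ATLD). Mre11 is the nuclease of a complex that binds broken DNA ends, and ATLD1 is a hypomorphic allele. Polyadenylated RNA was sequenced before neuT activation (day 0) and at day 14 and day 28 after it, with 3 libraries in each of the 6 groups of genotype and day. The labels do not give the strain, the age of the donors, the driver of neuT or the way it was switched on, nor whether replicates came from separate animals. The p-values therefore measure a spread between libraries that may be technical. No culture without neuT was kept to the later days among the samples used here, so effects of neuT and of time in culture cannot be told apart.

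HIF is a pair of transcription factor subunits. Its alpha subunit, Hif1a or Epas1 (also called HIF2 alpha), is hydroxylated on prolines by the Egln enzymes when oxygen is present, is then bound by Vhl and is destroyed. When oxygen is short, or when growth signals raise synthesis of the protein, the alpha subunit escapes this, pairs with Arnt and switches on genes for glucose uptake, glycolysis, lactate export, blood vessel growth, mitophagy, collagen modification and pH control. Egln3 and, in part, Egln1 are themselves HIF targets. Because the alpha subunit is set mainly by protein decay, RNA levels of Hif1a and Epas1 do not report its activity.

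HIF is known to bind a short core, ACGTG or GCGTG. Both words were searched on both strands (so CACGT and CACGC count as well) in the 250 bases before each annotated start in a RefSeq table for GRCm38.p6, the build also called mm10. ACGTG overlaps the CACGTG word that other factors read. The table held 53 such windows for 38 of the 47 genes. The words were present in 40 of the 53 windows (75.5%), beside 38.6% of all 32851 windows of the table. Median GC content was 62.0% in the 53 windows and 52.4% in all, and these words are rich in G and C. A match is a description and was not tested as a binding site. The 6 windows below belong to 3 of the 4 genes with a window that rose most in WT at day 14 (Slc16a3, Bnip3 and Ankrd37), to the 2 enzymes of glycolysis with the largest rises (Pfkp and Pgk1) and to the 1 enzyme that fell (Aldoc, shown before the first of its 2 starts). Vegfa, the other of the 4, has 2 annotated starts, and the words are before 1 of them. That window (chr17:46025164-46025413) lies inside the gene, and the window before the 5′ end of the gene holds none of the words. Each of the 6 windows below is printed 5′ to 3′ on the strand of its gene, with the matches in capitals. Slc16a3 is at chr11:120948817-120949066 (plus strand), Bnip3 at chr7:138909507-138909756 (minus strand), Ankrd37 at chr8:45999851-46000100 (minus strand), Pfkp at chr13:6648772-6649021 (minus strand), Pgk1 at chrX:106186850-106187099 (plus strand) and Aldoc at chr11:78322823-78323072 (plus strand).
Slc16a3: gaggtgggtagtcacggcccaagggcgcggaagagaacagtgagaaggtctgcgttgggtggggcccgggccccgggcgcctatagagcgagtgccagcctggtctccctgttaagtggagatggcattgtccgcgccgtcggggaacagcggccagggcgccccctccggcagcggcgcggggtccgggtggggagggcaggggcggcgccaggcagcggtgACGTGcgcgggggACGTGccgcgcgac
Bnip3: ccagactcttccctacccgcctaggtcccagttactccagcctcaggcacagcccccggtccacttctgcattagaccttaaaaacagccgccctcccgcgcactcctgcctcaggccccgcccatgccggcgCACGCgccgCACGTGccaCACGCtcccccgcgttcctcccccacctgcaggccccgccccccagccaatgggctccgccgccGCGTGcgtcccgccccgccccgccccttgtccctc
Ankrd37: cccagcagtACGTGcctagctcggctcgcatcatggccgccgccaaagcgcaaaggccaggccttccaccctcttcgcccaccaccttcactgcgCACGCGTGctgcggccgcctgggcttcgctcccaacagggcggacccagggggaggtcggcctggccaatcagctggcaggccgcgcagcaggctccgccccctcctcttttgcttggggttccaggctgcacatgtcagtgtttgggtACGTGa
Pfkp: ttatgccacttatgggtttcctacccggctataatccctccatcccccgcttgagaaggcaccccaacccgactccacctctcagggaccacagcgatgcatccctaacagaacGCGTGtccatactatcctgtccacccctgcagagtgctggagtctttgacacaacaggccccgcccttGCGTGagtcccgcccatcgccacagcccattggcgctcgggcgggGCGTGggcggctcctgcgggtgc
Pgk1: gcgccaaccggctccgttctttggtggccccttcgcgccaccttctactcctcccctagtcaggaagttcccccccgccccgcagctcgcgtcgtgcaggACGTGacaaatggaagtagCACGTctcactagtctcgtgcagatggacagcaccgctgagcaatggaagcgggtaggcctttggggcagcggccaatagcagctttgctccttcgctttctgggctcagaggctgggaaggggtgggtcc
Aldoc: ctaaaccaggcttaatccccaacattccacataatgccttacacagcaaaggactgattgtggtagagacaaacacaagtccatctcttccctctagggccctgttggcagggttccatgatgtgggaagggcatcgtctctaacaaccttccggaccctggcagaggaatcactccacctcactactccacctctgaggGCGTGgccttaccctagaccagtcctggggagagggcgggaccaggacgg
Counted from the base before the start site as -1, the matches of Slc16a3 began at -27 and -14 and those of Pgk1 at -150 and -131. Those of Pfkp began at -136, -68 and -23. Bnip3 had 5 matches, of which 2 overlapped in the CACGTG word at -108, and Ankrd37 had 4. The words were found in 26 of the 31 genes with a window that rose in WT at day 14 and in 7 of the 7 that did not, Aldoc among them.

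The original WT libraries held 30905703 to 50879106 counts and the ATLD libraries 46331204 to 51757203. Mre11a was at 42.2 to 58.6 CPM in the 12 WT libraries and at 14.1 to 17.05 CPM in the 9 ATLD libraries. The original WT libraries were sequenced in one batch and the ATLD libraries in another. Only a second run of WT replicate 1 at each day, with 46532851 to 48887808 counts, links the batches, so comparisons of genotypes were fitted with a batch term that rests on those 3 cultures. Replicates 1 and 3 of WT day 14 and replicate 2 of WT day 28 had fewer counts of GC-rich genes than the other libraries. Their log2 level of genes at 60% GC, less that of genes at 40% GC, was between -1.28 and -1.03, against -0.649 to 0.807 in the others. The epithelial label held: 4 of 4 pan-epithelial markers were measured, at a summed 1299 to 1764 CPM in WT and 1934 to 2662 CPM in ATLD. Lists for endothelial, immune, adipocyte, erythroid and skeletal muscle cells summed to at most 4.01 CPM in every library, and 9 fibroblast markers to 11.7 to 57.5 CPM. A list of 4 lung epithelial genes summed to 6.65 to 14.99 CPM in the original WT libraries and to at most 0.873 CPM in the resequenced and ATLD ones. In bulk RNA, fewer cells of a type and less RNA per cell cannot be told apart.

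Most of the 47 genes were called as higher in WT on the later days, and fewer were in ATLD. In WT, 39 of the 47 genes rose and 1 fell by day 14, where 30.3% of all 18684 genes tested were called in either direction and 15.2% as higher. By day 28, 37 had risen and 2 had fallen, against a background of 24.7%. The median log2 change of the 47 was 1.10 at day 14 and 0.999 at day 28, beside 0.01 and 0.02 over all genes tested. In ATLD, 10 genes rose and 2 fell by day 14 (background 11.7% in either direction, 5.18% higher and 6.49% lower), and 19 rose and 7 fell by day 28 (background 29.8%). The medians there were 0.11 and 0.31, beside -0.03 and -0.02 over all genes. Calls are adjusted p-values under 0.05 from edgeR's quasi-likelihood test over all genes tested. The WT counts of genes that rose include Loxl2, Ndufa4l2 and Slc2a3, and the 7 that fell in ATLD include Slc2a3. These genes passed the low-count filter through the groups in which they are high.

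The difference between these time courses was tested itself, as the ATLD change less the WT change. By day 14 it was lower for 29 of the 47 genes and higher for 2, where 21.3% of all genes were called. By day 28 it was lower for 25 and higher for 3, with a background of 27.5%. All 29 of the day 14 list had risen in WT at that day. The WT change is itself part of this difference, so that overlap is a description and no separate evidence. The 25 genes with a lower change in ATLD on both days held 13 of the 21 other HIF targets, both of the called transporters and 6 of the 15 glycolytic enzymes. A lower change is not always a lower level. Bnip3l, Gpi1 and Higd1a, all among these 25, were called as higher in ATLD than in WT at day 0. They were not called between the genotypes at day 14 or day 28. Loxl2, Slc2a3 and Ndufa4l2 are among these 25 and are given as a description. Loxl2 and Slc2a3 passed the low-count filter only through WT groups, and Ndufa4l2 was under its level in WT at day 0. Markers of mammary cell types moved in the same libraries, and their part in these results was not tested. In the original WT libraries the 9 luminal progenitor markers (all 9 measured, none at 0 throughout) summed to 6729.6 to 7468 CPM at day 0. They summed to 769 to 1211 CPM at day 14 and to 858 to 1328 CPM at day 28. In ATLD they summed to 16640 to 18359 CPM at day 0, 14191 to 17569 CPM at day 14 and 28872 to 31230.4 CPM at day 28. The 8 basal and myoepithelial markers summed to 2174 to 2799 CPM in the original WT libraries of day 0 and to 4070.2 to 10046 CPM on the later days. In ATLD the basal sum was 3814 to 4148 CPM at day 0, 2549 to 2565 CPM at day 14 and 2045 to 2263 CPM at day 28. The 6 hormone-sensing luminal markers summed to 416 to 725 CPM in WT and to 93.7 to 182 CPM in ATLD.

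**Figure D1:**
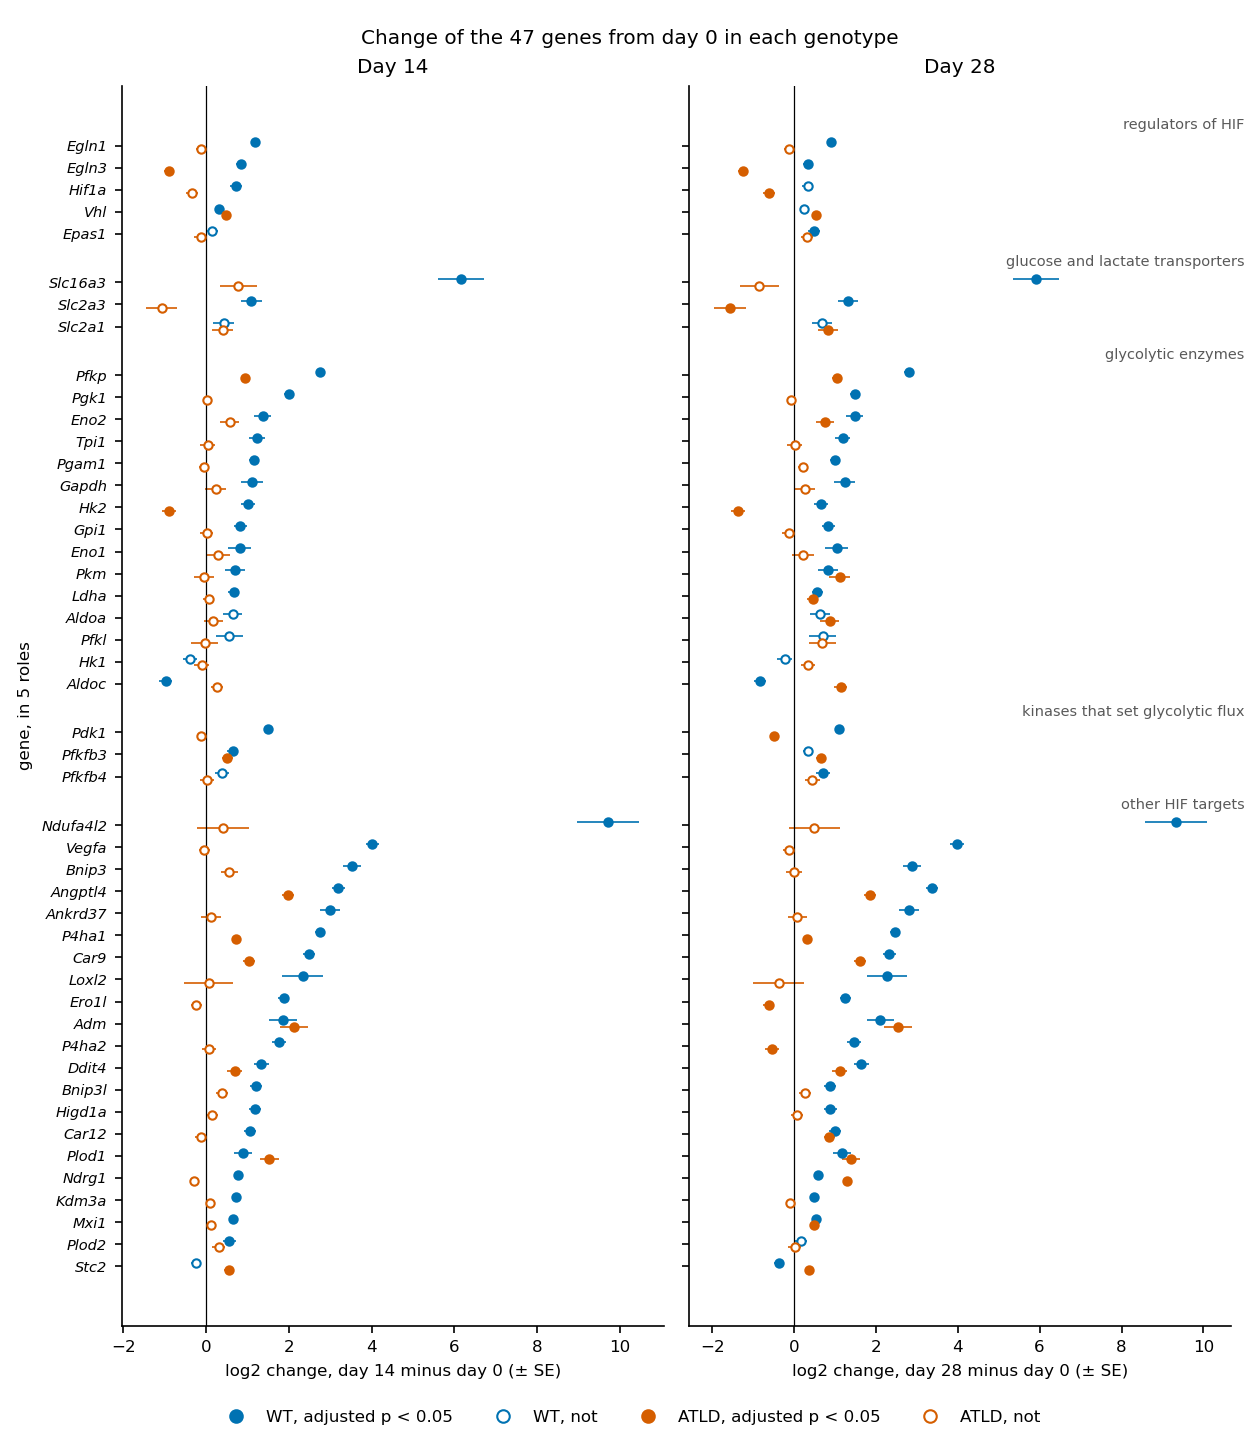
Log2 change from day 0 (horizontal axis, ± SE from edgeR, 3 libraries a group) of each of the 47 genes at day 14 (left) and day 28 (right), for WT (blue) and ATLD (orange). Filled points had an adjusted p under 0.05, and genes are ordered within their roles by the WT change at day 14. Blue points lie right of 0 for 39 called genes at day 14, and orange points cluster near 0 with a median of 0.11.

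Among the regulators, Hif1a rose in WT by day 14 and fell in ATLD by day 28, and Epas1 was lower in ATLD than in WT on each day. Hif1a stood at 167, 148 and 149 CPM in WT at day 0, at 287, 193 and 286 CPM at day 14 and at 181, 229 and 175 CPM at day 28. In ATLD it was at 165, 152 and 175 CPM, 139, 130.0 and 121 CPM and 94.8, 118 and 109 CPM at the same days. All WT libraries of day 14 lay above those of day 0, whereas in ATLD all libraries of day 28 lay below those of day 0. Hif1a rose by day 14 in WT (log2 change 0.72 ± 0.15, adjusted p = 9.6e-04) and fell by day 28 in ATLD (log2 change -0.61 ± 0.15, adjusted p = 0.0042). The WT rise was larger in the 2 libraries poor in GC-rich genes, and without the 3 such libraries it was 0.28 on the log2 scale with an adjusted p of 0.17. Epas1 was at 82.5, 90.7 and 96.8 CPM in WT at day 0, 88.8, 123 and 88.01 CPM at day 14 and 135, 99.5 and 142 CPM at day 28, with a rise by day 28 (log2 change 0.48 ± 0.15, adjusted p = 0.024). In ATLD it was at 69.5, 65.9 and 67.04 CPM at day 0, 56.2, 71.6 and 56.7 CPM at day 14 and 79.1, 81.9 and 89.9 CPM at day 28. It was lower in ATLD than in WT on all 3 days, with log2 differences of -0.78, -1.11 and -0.92 (adjusted p = 4.7e-04, 7.1e-06 and 6.6e-05).

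Of the oxygen-sensing hydroxylases that are also HIF targets, Egln3 changed in opposite directions in the 2 genotypes and Egln1 rose in WT. Egln3 was at 91.2, 85.5 and 83.9 CPM in WT at day 0, at 172, 128 and 166 CPM at day 14 and at 118, 117 and 93.9 CPM at day 28. In ATLD it began higher, at 142, 149 and 146 CPM, and was at 77.998, 78.4 and 79.7 CPM at day 14 and 68.7, 60.9 and 54.7 CPM at day 28. The groups did not overlap in either genotype. It rose by day 14 in WT (log2 change 0.84 ± 0.12, adjusted p = 3.1e-05) and fell in ATLD (log2 change -0.89 ± 0.12, adjusted p = 7.7e-05). The WT change at day 28 (log2 change 0.34 ± 0.12, adjusted p = 0.048) passed the threshold narrowly and was lost with DESeq2 (adjusted p = 0.054) and under 11 other alternatives of 15. Egln1, the main hydroxylase of HIF1 alpha, rose in WT (log2 change 1.19 ± 0.11, adjusted p = 1.0e-07) with a change in ATLD of -0.13 ± 0.10 (adjusted p = 0.54). Vhl, which marks the hydroxylated subunit for destruction, went from 33.3, 33.4 and 32.2 CPM in WT to 43.5, 39.2 and 40.6 CPM at day 14 and 37.1, 42.4 and 36.8 CPM at day 28. In ATLD it went from 32.9, 35.8 and 32.8 CPM to 49.7, 44.9 and 46.98 CPM and 48.4, 50.2 and 49.2 CPM, all later libraries above all earlier ones. Its rise in ATLD was 0.48 at day 14 and 0.54 at day 28 on the log2 scale (adjusted p = 0.001 and 1.3e-04). The WT rise at day 14 (log2 change 0.32 ± 0.09, adjusted p = 0.009) was lost without the 3 libraries poor in GC-rich genes and under 2 other alternatives of 15.

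Of the transporters, Slc16a3 (MCT4), the exporter of lactate from glycolytic cells, moved most. The gene (ENSMUSG00000025161, chr11:120948480-120960868) was at 0.459, 0.588 and 0.656 CPM in WT at day 0, at 26.6, 72.2 and 23.9 CPM at day 14 and at 42.5, 19.4 and 40.98 CPM at day 28. In ATLD it was at 4.84, 2.32 and 1.87 CPM, 4.12, 7.12 and 4.30 CPM and 2.41, 1.36 and 1.25 CPM. Every later WT library lay above every other library of the series. Slc16a3 rose 71.9-fold by day 14 in WT (log2 change 6.17 ± 0.56, adjusted p = 1.5e-07), its change in ATLD was 0.78 ± 0.45 (adjusted p = 0.34), and the difference of the changes was -5.39 ± 0.70 (adjusted p = 1.6e-05). It was the transporter already higher in ATLD at day 0 (log2 difference 1.86 ± 0.55, adjusted p = 0.0076). Slc2a3 (GLUT3), a glucose transporter of high affinity, was near the limit of measurement at 0.417, 0.294 and 0.360 CPM in WT at day 0, 0.733, 0.707 and 0.884 CPM at day 14 and 0.696, 0.877 and 1.14 CPM at day 28. In ATLD it was at 0.237, 0.203 and 0.242 CPM at day 0 and at 0.0683, 0.0637 and 0.0941 CPM at day 28. These are 11, 9 and 11 counts against 3, 3 and 4. They are given as a description, since Slc2a3 passed the low-count filter only through WT groups. Slc2a1 (GLUT1), the main glucose transporter here, did not pass the test in WT (log2 change 0.43 ± 0.25, adjusted p = 0.22). It was at 83.997, 176 and 82.4 CPM in the WT libraries of day 14, low in the 2 libraries poor in GC-rich genes and 181 CPM in the resequenced run of replicate 1. In ATLD it rose by day 28 (log2 change 0.83 ± 0.25, adjusted p = 0.019).

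Among the glycolytic enzymes, changes in WT were smaller. By day 14, 11 of 15 rose, 1 fell and 3 (Hk1, Pfkl and Aldoa) did not pass, with a median log2 change of 0.83. By day 28 the counts were the same, 11 risen and 1 fallen, with a median of 0.84. In ATLD, 1 rose and 1 fell by day 14, and 6 rose and 1 fell by day 28. Over all genes tested, 15.2% and 12.3% were called as higher in WT at day 14 and day 28. In ATLD 5.18% and 14.1% were called as higher and 6.49% and 15.7% as lower. The share of the enzymes called in ATLD at day 14 was near the 11.7% of all genes. The difference of the changes was lower for 7 enzymes at day 14 and 6 at day 28 (10.6% and 14% of all genes), and higher for Aldoc on both days. Several of these enzymes, Gapdh, Pgk1, Eno1, Pkm, Ldha and Pgam1 among them, have near-identical processed pseudogenes, so their counts carry an uncertainty that depends on how the authors' counting treated shared reads.

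Pfkp, the platelet form of phosphofructokinase, which catalyses the committed step of glycolysis, rose most among the enzymes. It (ENSMUSG00000021196, chr13:6579768-6648777) was at 91.9, 96.3 and 98.2 CPM in WT at day 0, at 622, 681 and 637 CPM at day 14 and at 724, 622 and 656 CPM at day 28. In ATLD it was at 94.1, 91.4 and 116 CPM, then 183, 219.6 and 177 CPM and 209, 212 and 197 CPM. The 2 genotypes overlapped at day 0 and lay far apart later. Pfkp rose 6.78-fold in WT (log2 change 2.76 ± 0.12, adjusted p = 8.4e-12) and 1.92-fold in ATLD (log2 change 0.94 ± 0.11, adjusted p = 1.7e-05), and the changes differed (log2 difference -1.82 ± 0.15, adjusted p = 1.1e-07). Pgk1 (phosphoglycerate kinase, which makes ATP) was at 80.7, 76.2 and 76.2 CPM in WT at day 0, 337, 278 and 319 CPM at day 14 and 219, 233 and 200.3 CPM at day 28. In ATLD the gene stood at 129, 161 and 156 CPM, 145, 145 and 166 CPM and 153, 147 and 125 CPM. The ATLD days overlapped, and all 9 ATLD libraries lay between the WT libraries of day 0 and those of the later days. The WT rise was 4.01-fold (log2 change 2.003 ± 0.12, adjusted p = 5.4e-10) and the ATLD change was 0.03 ± 0.11 (adjusted p = 0.92).

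Hexokinase 2 (Hk2), the inducible enzyme that traps glucose in the cell, moved in opposite directions. It was at 10.3, 11.2 and 10.7 CPM in WT at day 0, at 19.5, 26.96 and 18.3 CPM at day 14 and at 20.4, 13.9 and 16.95 CPM at day 28. In ATLD it went from 20.4, 16.5 and 18.02 CPM to 9.09, 11.9 and 8.67 CPM and 6.30, 7.68 and 7.31 CPM. No group overlapped with day 0 of its genotype. Hk2 rose in WT (log2 change 1.01 ± 0.17, adjusted p = 1.9e-04) and fell in ATLD at day 14 (log2 change -0.89 ± 0.17, adjusted p = 0.0018) and at day 28 (log2 change -1.37 ± 0.17, adjusted p = 1.4e-05). Hk1, the constitutive hexokinase, was at 399.5, 338 and 321 CPM in ATLD at day 28 and at 187, 125 and 181 CPM in WT, and it was higher in ATLD at that day (log2 difference 0.77 ± 0.20, adjusted p = 0.0021).

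Aldoc, the brain-type aldolase, was the enzyme that went against the others. In WT it was at 247, 271 and 293 CPM at day 0, 126, 167 and 121 CPM at day 14 and 174, 120.0 and 162 CPM at day 28. ATLD libraries stood at 337, 409 and 413 CPM, 401, 492 and 499 CPM and 945, 836 and 782 CPM. Later WT libraries were all lower than those of day 0, and ATLD libraries of day 28 were all higher. Aldoc fell in WT (log2 change -0.97 ± 0.16, adjusted p = 1.1e-04) and rose by day 28 in ATLD (log2 change 1.15 ± 0.16, adjusted p = 2.9e-05), so that it was 4.51-fold higher in ATLD at day 28 (log2 difference 2.17 ± 0.17, adjusted p = 3.8e-09).

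The abundant enzymes Gapdh, Eno1 and Pkm had a wide spread among WT libraries of the same day. Gapdh was at 367, 442 and 446 CPM in WT at day 0, 683, 1386 and 642 CPM at day 14 and 1142, 674 and 1149 CPM at day 28. The ATLD values were 852, 990.3 and 1049 CPM, 937, 1222 and 1231 CPM and 1333, 1156 and 993 CPM. The 3 WT libraries poor in GC-rich genes were the lowest of the later WT libraries. Gapdh rose in WT at both days (log2 change 1.11 ± 0.26, adjusted p = 0.0029 at day 14), and its changes in the 2 genotypes did not differ past the threshold (log2 difference -0.88 ± 0.36, adjusted p = 0.097). Eno1 (enolase 1) was at 289, 369 and 377 CPM in WT at day 0 and at 448, 955 and 413 CPM at day 14, with the resequenced run of replicate 1 at 938 CPM. Its rise at day 14 (log2 change 0.81 ± 0.27, adjusted p = 0.031) was lost without WT day 14 replicate 2, without any 1 WT library of day 0 and under 2 other alternatives of 15, as was that of Pkm. Pkm (pyruvate kinase) was at 899, 1101 and 1118 CPM in WT at day 0, 1289, 2585 and 1177 CPM at day 14 and 2140.3, 1252 and 2139 CPM at day 28. In ATLD Pkm was at 1408, 1466 and 1603 CPM, 1242, 1566 and 1494 CPM and 3424, 3300.2 and 2948 CPM, and it rose between day 14 and day 28 (log2 change 1.17 ± 0.25, adjusted p = 0.0036). Ldha (lactate dehydrogenase A, which makes lactate) was higher in ATLD than in WT at day 0, at 1084, 1307 and 1160.3 CPM against 589.8, 644 and 666 CPM (log2 difference 0.81 ± 0.15, adjusted p = 2.4e-04). Tpi1, Pgam1, Gpi1 and Eno2 also rose in WT at day 14, with log2 changes of 1.24, 1.16, 0.83 and 1.37. Eno2, the neuronal enolase, was scarce, at 1.17 to 4.83 CPM over the original WT libraries.

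Of the kinases that set flux, Pdk1 separated the genotypes most. It phosphorylates pyruvate dehydrogenase and so keeps pyruvate out of the mitochondrion. Pdk1 was at 72.5, 72.2 and 71.03 CPM in WT at day 0, 216, 186 and 208 CPM at day 14 and 156, 159 and 145 CPM at day 28, and in ATLD at 82.6, 76.6 and 74.2 CPM, 74.2, 69.5 and 71.03 CPM and 52.1, 57.1 and 56.5 CPM. WT rose at day 14 (log2 change 1.502 ± 0.09, adjusted p = 3.9e-10), and ATLD at day 28 lay below all its earlier libraries (log2 change -0.49 ± 0.08, adjusted p = 2.5e-04). Pfkfb3, which makes the activator of phosphofructokinase, rose in both genotypes at day 14 (0.64 ± 0.13 in WT and 0.51 ± 0.13 in ATLD, adjusted p = 0.0011 and 0.014). The difference of these changes was -0.13 ± 0.18 (adjusted p = 0.7). Without the 3 WT libraries poor in GC-rich genes the WT change did not pass, and the ATLD call was lost in 3 of 13 alternatives. Pfkfb4, a relative with the same activity, ranged from 3.94 to 7.62 CPM over the original WT libraries and from 2.75 to 4.87 CPM over those of ATLD. It was lower in ATLD on all 3 days, with log2 differences of -0.65, -1.09 and -0.86.

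**Figure D2:**
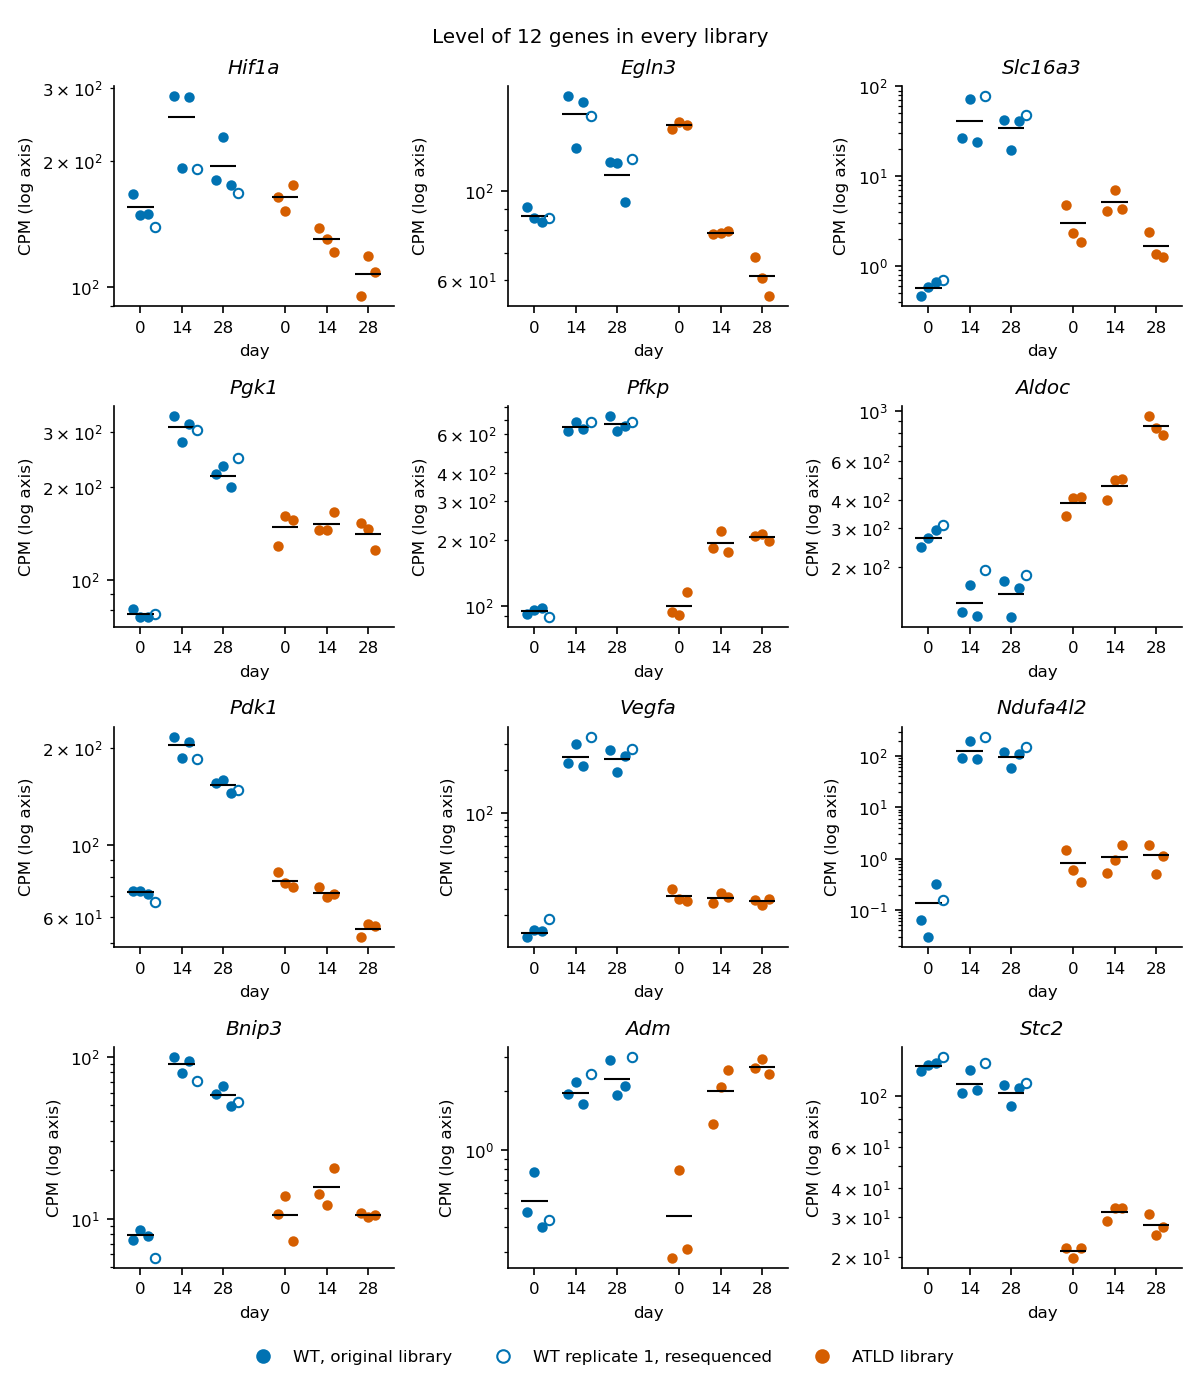
CPM (log axis) of 12 genes in every library against day, for WT (blue) and ATLD (orange), with black lines at the mean of the 3 original libraries and open circles for the resequenced run of WT replicate 1. Vegfa, Slc16a3, Ndufa4l2, Bnip3, Pgk1 and Pdk1 rise in WT with no called rise in ATLD, Adm rises in both genotypes, and Aldoc falls in WT and rises in ATLD.

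The 21 other HIF targets held the largest changes. In WT, 20 rose by day 14 and Stc2 did not pass, and the median log2 change was 1.76. By day 28, 19 rose and 1 fell. In ATLD, 7 rose by day 14 and none fell, and by day 28, 10 rose and 2 fell. Over all genes tested, 15.2% and 12.3% were called as higher in WT at these days, and 5.18% and 14.1% in ATLD. The difference of the changes was lower for 16 of the 21 at day 14 and for 13 at day 28 (10.6% and 14% of all genes).

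Vegfa, the growth factor that draws in blood vessels, was among the clearest. The gene (ENSMUSG00000023951, chr17:46016993-46032369) was at 14.1, 15.6 and 15.6 CPM in WT at day 0, at 222, 302 and 211 CPM at day 14 and at 274, 192 and 249.9 CPM at day 28. ATLD gave 30.03, 25.96 and 25.2 CPM, 24.3, 28.2 and 26.5 CPM and 25.4, 23.4 and 25.7 CPM. All 9 ATLD libraries lay above WT day 0 and below every later WT library. Vegfa rose 16.2-fold in WT (log2 change 4.02 ± 0.16, adjusted p = 5.1e-12), the ATLD change was -0.04 ± 0.14 (adjusted p = 0.92), and the difference was -4.06 ± 0.21 (adjusted p = 2.5e-10). Ndufa4l2, which lowers the activity of mitochondrial complex I, was nearly absent from WT at day 0, with 3, 1 and 15 counts (0.0626, 0.0294 and 0.318 CPM). It was at 91.6, 196 and 86.8 CPM at day 14 and at 119, 57.6 and 109.7 CPM at day 28, and no later WT library came near the level of day 0. The 9 ATLD libraries ranged from 0.352 to 1.87 CPM. The pooled level of WT day 14 was 821 times that of day 0, with a 95% exact interval of 526 to 1364 for counting error only. The fitted value (log2 change 9.72 ± 0.75) depends on the prior count at such low levels. The time courses differed by -9.31 ± 0.99 on the log2 scale. This value is given as a description, since Ndufa4l2 was under the level of the filter in WT at day 0.

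Bnip3, a receptor that marks mitochondria for removal, was at 7.40, 8.44 and 7.75 CPM in WT at day 0, 99.1, 78.8 and 93.6 CPM at day 14 and 58.5, 65.4 and 49.8 CPM at day 28. The ATLD libraries read 10.7, 13.7 and 7.22 CPM, 14.2, 12.05 and 20.5 CPM and 10.8, 10.3 and 10.5 CPM. Later WT libraries stood above all others, and the ATLD days overlapped. Bnip3 rose 11.5-fold in WT (log2 change 3.53 ± 0.22, adjusted p = 1.4e-09), with an ATLD change of 0.56 ± 0.20 (adjusted p = 0.094). Its relative Bnip3l rose in WT (log2 change 1.21 ± 0.15, adjusted p = 4.7e-06) with an ATLD change of 0.38 ± 0.14 (adjusted p = 0.11). Ankrd37, a small ankyrin protein, was at 1.02, 0.677 and 0.932 CPM in WT at day 0, 6.41, 7.87 and 6.90 CPM at day 14 and 5.99, 6.55 and 6.08 CPM at day 28. In the 9 ATLD libraries it ranged from 0.990 to 2.02 CPM, below every later WT library. Its WT rise was 7.94-fold (log2 change 2.99 ± 0.24, adjusted p = 3.5e-08) and the difference of the changes -2.88 ± 0.34 (adjusted p = 5.3e-06).

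P4ha1, P4ha2 and Ero1l rose in WT by day 14. P4ha1, the catalytic subunit of collagen prolyl hydroxylase, was at 23.2, 23.8 and 24.4 CPM at day 0, 167, 148 and 165 CPM at day 14 and 131, 139 and 127 CPM at day 28 in WT. ATLD libraries stood at 24.4, 18.04 and 19.96 CPM, 37.3, 37.3 and 29.02 CPM and 26.6, 25.1 and 26.6 CPM, above day 0 at both later days but far below WT. P4ha1 rose 6.73-fold in WT (log2 change 2.75 ± 0.12, adjusted p = 1.9e-11) and 1.66-fold in ATLD (log2 change 0.73 ± 0.12, adjusted p = 3.5e-04). Its day 28 rise in ATLD (log2 change 0.33 ± 0.12, adjusted p = 0.042) was lost without the low-count filter (adjusted p = 0.135) and in 7 other alternatives of 13. P4ha2 was at 10.3, 12.3 and 10.8 CPM in WT at day 0 and 34.5, 47.8 and 30.7 CPM at day 14, and in ATLD at 15.1, 14.6 and 16.4 CPM at day 0 and 11.4, 11.1 and 9.22 CPM at day 28. It rose in WT (log2 change 1.76 ± 0.17, adjusted p = 3.5e-07) and fell in ATLD by day 28 (log2 change -0.54 ± 0.17, adjusted p = 0.024). Ero1l, an oxidase that forms disulphide bonds in the endoplasmic reticulum, was at 58.95, 55.9 and 57.3 CPM, 243, 159.9 and 228 CPM and 135, 155 and 120.3 CPM in WT and at 65.4, 61.4 and 66.2 CPM, 58.02, 56.6 and 49.5 CPM and 37.3, 44.6 and 43.7 CPM in ATLD. It too rose in WT (log2 change 1.87 ± 0.14, adjusted p = 1.3e-08) and fell in ATLD by day 28 (log2 change -0.62 ± 0.14, adjusted p = 0.0025). Loxl2, which crosslinks collagen, reached no more than 0.633 CPM in any original library. Its difference of changes (log2 difference -2.27 ± 0.79) is given as a description, and the call was lost in 14 of 21 alternatives.

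Some targets rose in ATLD as well. Adm (adrenomedullin, a vasodilator peptide) was at 0.480, 0.765 and 0.402 CPM in WT at day 0, 1.92, 2.22 and 1.73 CPM at day 14 and 2.90, 1.92 and 2.13 CPM at day 28. The ATLD values were 0.280, 0.789 and 0.308 CPM, 1.35, 2.09 and 2.57 CPM and 2.62, 2.91 and 2.45 CPM. In both genotypes every later library lay above every library of day 0. Adm rose 3.63-fold in WT (log2 change 1.86 ± 0.34, adjusted p = 3.4e-04) and 4.36-fold in ATLD (log2 change 2.12 ± 0.34, adjusted p = 3.7e-04), and the difference was 0.26 ± 0.48 (adjusted p = 0.77). Adm, Ddit4 and Plod1 were the 3 genes that rose on both later days in both genotypes and whose changes did not differ past the threshold. Plod1, a lysyl hydroxylase of collagen, went from 9.94, 7.42 and 6.89 CPM to 22.2, 25.3 and 22.6 CPM and 20.98, 19.3 and 23.5 CPM in ATLD, and from 17.9, 22.2 and 24.7 CPM to 32.9, 55.6 and 32.5 CPM and 57.7, 34.9 and 52.8 CPM in WT. Its level was lower in ATLD on each day, with log2 differences of -1.74, -1.25 and -1.57. Ddit4 (REDD1, an inhibitor of mTORC1) rose by 1.34 in WT and 0.70 in ATLD on the log2 scale at day 14, and the ATLD call was lost in 3 of 13 alternatives.

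Angptl4, a secreted inhibitor of lipoprotein lipase, rose in both genotypes but by unequal amounts. In WT it was at 16.04, 19.5 and 21.3 CPM at day 0, 159.7, 205 and 157 CPM at day 14 and 216, 159.8 and 211 CPM at day 28. ATLD gave 33.9, 28.8 and 32.9 CPM, 113, 140.2 and 126 CPM and 119, 111 and 114 CPM. The ATLD libraries began above WT and ended below it. The rise at day 14 was 9.18-fold in WT and 3.96-fold in ATLD (difference of log2 changes -1.21 ± 0.20, adjusted p = 2.1e-04). Car9, a membrane carbonic anhydrase that acidifies the outside of hypoxic cells, also rose in both. It was at 11.8, 13.8 and 15.3 CPM, 70.2, 90.2 and 68.4 CPM and 73.1, 59.7 and 72.9 CPM in WT and at 12.9, 9.97 and 11.004 CPM, 20.4, 24.005 and 24.9 CPM and 38.4, 34.4 and 31.3 CPM in ATLD. Car9 rose 5.60-fold in WT and 2.05-fold in ATLD at day 14, and the changes differed by -1.45 ± 0.20 (adjusted p = 4.0e-05).

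Car12, Ndrg1 and Stc2 were lower in ATLD than in WT already at day 0. Car12, another carbonic anhydrase, was abundant, at 497, 495 and 531 CPM in WT at day 0, 1116, 981 and 1092 CPM at day 14 and 979, 1059 and 1010.2 CPM at day 28. The ATLD libraries read 253, 208 and 208 CPM, 231, 203 and 177 CPM and 330.2, 389 and 492 CPM, below every WT library of the same day. Car12 rose in WT (log2 change 1.07 ± 0.14, adjusted p = 9.6e-06) and, by day 28, in ATLD (log2 change 0.86 ± 0.14, adjusted p = 1.3e-04). Ndrg1, a stress-responsive gene, was at 288, 295 and 296 CPM, 517, 494 and 489.8 CPM and 455, 417 and 444 CPM in WT and at 188, 195 and 230.2 CPM, 146, 188 and 166 CPM and 533, 487 and 477 CPM in ATLD. The ATLD libraries lay below WT at day 0 and day 14 and above it at day 28, where the difference did not pass (log2 difference 0.08 ± 0.11, adjusted p = 0.54). Ndrg1 rose in ATLD between day 14 and day 28 (log2 change 1.59 ± 0.11, adjusted p = 6.8e-08), the largest rise among the 47 in that interval. Stc2, a secreted stanniocalcin, was at 128, 137 and 139 CPM in WT at day 0 and 112, 90.7 and 109 CPM at day 28, and at 21.9, 19.9 and 21.99 CPM and 30.7, 24.9 and 26.9 CPM in ATLD. Stc2 fell in WT by day 28 (log2 change -0.38 ± 0.11, adjusted p = 0.021) and rose in ATLD (log2 change 0.37 ± 0.12, adjusted p = 0.022). The WT fall was lost in 4 of 15 alternatives and the ATLD rise in 3 of 13. It was lower in ATLD on all 3 days, with log2 differences of -2.84, -2.08 and -2.10 (adjusted p = 6.5e-12 at day 0). Higd1a (a mitochondrial protein), Kdm3a (a histone demethylase) and Mxi1 (an antagonist of Myc) rose in WT at day 14 by 1.18, 0.72 and 0.66 on the log2 scale, with ATLD changes of 0.14, 0.10 and 0.12 that did not pass. Plod2, another lysyl hydroxylase, rose in WT by 0.56, a call lost without either of the 2 libraries of that day that were poor in GC-rich genes.

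The genotypes were also set side by side on each day. At day 0, 18 of the 47 genes were higher in ATLD than in WT and 7 were lower, where 55.6% of all 18844 genes tested were called, 26.1% as higher and 29.5% as lower. Without WT day 0 replicate 1 (both runs), which leaves that day with no culture run in both batches, 14 were called, 7 higher and 7 lower. Of the 25 calls of day 0, 12 held under every alternative. At day 14, 2 were higher and 32 lower (background 65.1%, with 30.1% higher and 35% lower), and at day 28, 5 were higher and 28 lower (background 64.2%, with 34.9% lower). At each day the share of the 47 that was called, in either direction, was near the background. Median log2 differences were 0.22, -1.0 and -0.78, beside -0.04, -0.07 and -0.05 over all genes. Of the genes higher in ATLD at day 0, 11 were lower in ATLD at both later days: Angptl4, Ankrd37, Bnip3, Egln3, Ero1l, Hk2, Pdk1, Pgk1, Slc16a3, Tpi1 and Vegfa. The share of all genes tested with the same reversal was not counted, so these 11 are given as a description. Of these 11, only Egln3 and Pgk1 were called at day 0 under all 15 alternatives. Angptl4, Bnip3, Ero1l, Hk2, Pdk1, Slc16a3, Tpi1 and Vegfa were lost without WT day 0 replicate 1, and Pdk1 was lost in 10 alternatives. Of the 15 glycolytic enzymes, 8 were higher in ATLD at day 0 and 1, Eno2, was lower. Among the other targets Higd1a was at 37.0004, 58.4 and 44.1 CPM in ATLD and 20.8, 22.5 and 24.1 CPM in WT at day 0 (log2 difference 1.06 ± 0.16, adjusted p = 3.1e-05). Within the second batch alone, with 1 WT library at each day that was assumed to vary like the ATLD groups, 23 of the 47 were called at day 0, 35 at day 14 and 31 at day 28, where 43.3%, 55.5% and 53.9% of all genes were.

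**Figure D3:**
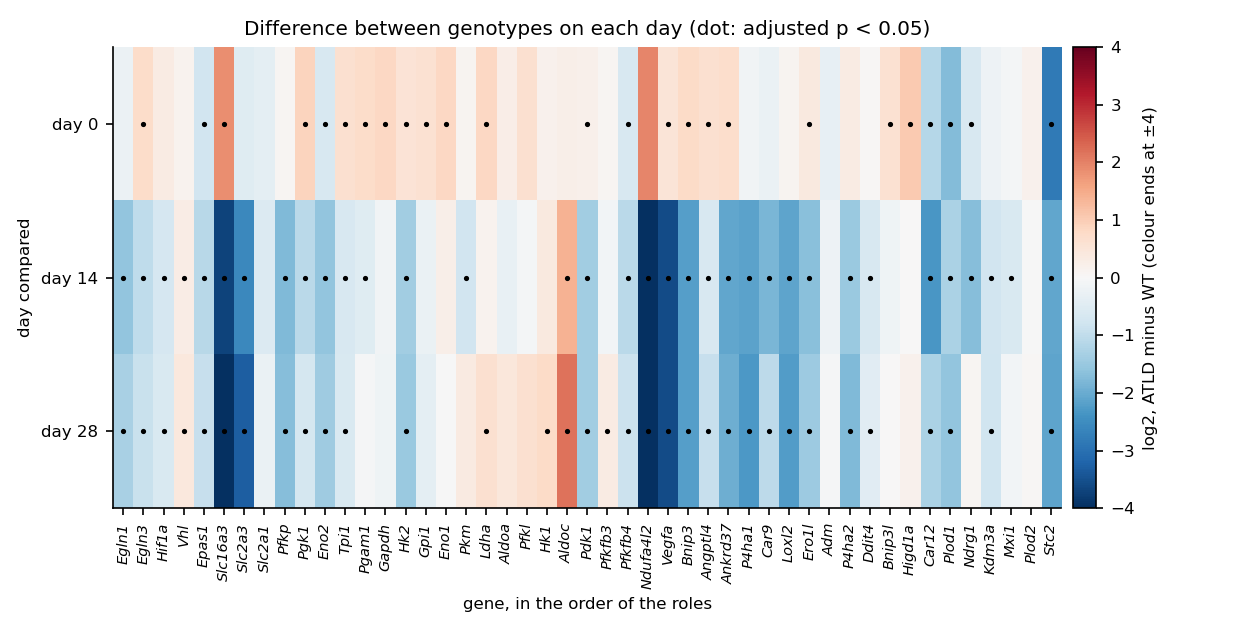
Log2 difference of ATLD and WT (colour, red higher in ATLD and blue lower, colour ending at 4 in either direction) for each of the 47 genes on each day, from the fit of 21 libraries with a batch term. Dots mark adjusted p under 0.05. At day 0, 18 genes were called as higher and 7 as lower (7 and 7 without WT day 0 replicate 1), and 32 genes were called as lower at day 14 and 28 at day 28.

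Between day 14 and day 28 few of the 47 were called in WT. Ero1l, Pdk1 and Pgk1 fell, with log2 changes of -0.62 ± 0.14, -0.41 ± 0.08 and -0.52 ± 0.11, and no other of the 47 was called, where 0.905% of all genes were, 0.53% as higher. All WT libraries of day 28 were below those of day 14 for these 3 genes. The calls were lost without the 3 libraries poor in GC-rich genes, which are 3 of the 6 libraries compared, and without WT day 14 replicate 2 the count was 18, with 9 higher and 9 lower. In ATLD, 7 of the 47 rose between those days and 5 fell (background 17.3%, with 8.25% higher and 9.05% lower). Those that rose were Aldoc, Car12, Car9, Epas1, Mxi1, Ndrg1 and Pkm, and those that fell were Egln3, P4ha1, P4ha2, Pdk1 and Slc16a3. Of these 12 calls, 4 held under every alternative. Egln3 was lost in 8 of 13 alternatives, Epas1 in 7, P4ha1 in 6 and Slc16a3 in 3. Slc16a3 had the largest fall there (log2 change -1.63 ± 0.47, adjusted p = 0.024).

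The make-up of several enzyme families shifted in WT, as read from levels per kilobase of gene model. With 3 libraries against 3 the smallest p of an exact permutation test is 0.10, so shares are given as mean ± SD (n = 3) with whether groups overlap. Pfkp made up 19.01% ± 1.72 of phosphofructokinase transcripts in WT at day 0, 55.5% ± 10.1 at day 14 and 52.7% ± 7.58 at day 28. In ATLD its share was 11.3% ± 1.19, 19.7% ± 2.61 and 13.8% ± 1.19. Shares of later WT libraries lay above all others. The resequenced WT runs gave 15.1%, 41.9% and 47.3%. Among the original libraries of WT day 14 the share was lowest in replicate 2, at 43.9%, and reached 61.9% in those poor in GC-rich genes. Pfkp is at 48.0% GC and Pfkl, of the same family, at 57.1%. Hk2 made up 7.39% ± 0.413 of hexokinase transcripts in WT at day 0 and 17.4% ± 0.430 at day 14, against 8.62% ± 0.856 at day 0 and 2.84% ± 0.548 at day 28 in ATLD. The groups compared did not overlap in either genotype. Pdk1 went from 28.5% ± 0.765 to 52.2% ± 0.407 of pyruvate dehydrogenase kinase transcripts in WT by day 14, and in ATLD from 20.3% ± 2.35 at day 0 to 12.8% ± 0.909 at day 28. Aldoc fell from 30.7% ± 1.06 to 13.2% ± 2.14 of aldolase transcripts in WT, with no overlap between the days. In ATLD it was 26.7% ± 0.933 at day 0 and 30.7% ± 0.754 at day 28. Ldha made up 88.1% ± 0.106 of lactate dehydrogenase transcripts in WT at day 0 and 93.4% ± 0.383 at day 14, and 92.9% ± 0.440 in ATLD at day 0. Of the prolyl hydroxylase subunits, P4ha1 went from 67.8% ± 1.92 to 85.7% ± 3.69 in WT and P4ha3 from 11.3% ± 1.12 to 0.940% ± 0.217. The share of P4ha1 rose in ATLD too, from 61.1% ± 3.81 to 70.6% ± 3.27 at day 14 and 73.4% ± 1.62 at day 28. Neither later day overlapped with day 0 there. P4ha3 in ATLD was at 8.94% ± 0.917, 7.50% ± 0.477 and 6.93% ± 0.517 on the 3 days.

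**Figure D4:**
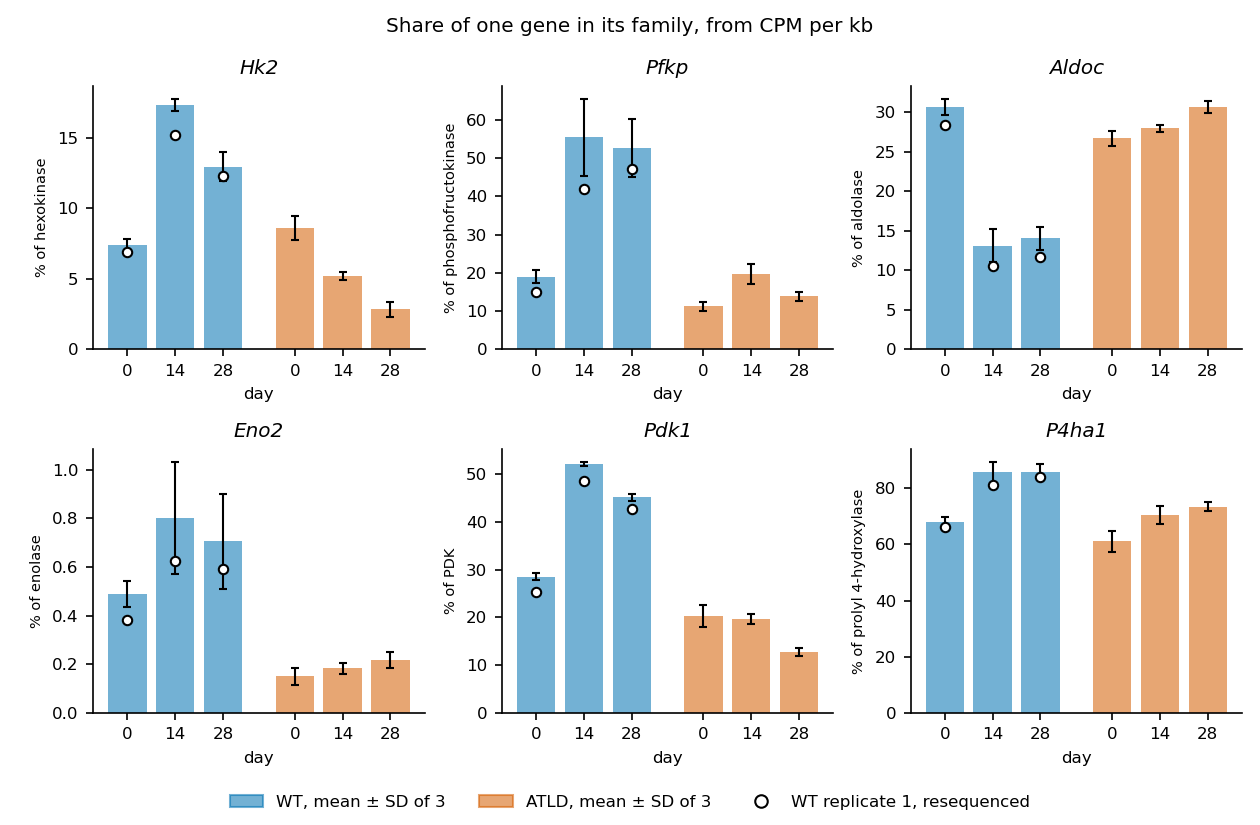
Share of 6 genes in their gene family, from CPM per kilobase (bars, mean of 3 original libraries with SD) by day in WT (blue) and ATLD (orange), with open circles for the resequenced run of WT replicate 1. Hk2, Pfkp, Pdk1 and P4ha1 take a larger share in WT at day 14 and day 28, and Aldoc a smaller one. In ATLD the share of P4ha1 is also larger on those days than at day 0, and that of Pfkp is larger at day 14.

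Summed over the 15 enzymes, with no batch term, glycolytic RNA was higher in ATLD than in the original WT libraries at day 0 and day 28. The sums overlapped at day 14. Genotype and batch coincide among these libraries. In the fit with a batch term, 8 of the 15 were higher in ATLD and 1 lower at day 0 (median log2 difference 0.62). The background there was 26.1% higher and 29.5% lower. At day 28, 3 were higher and 5 lower (median -0.04), with a background of 29.3% and 34.9%. The sum was 4260.5 ± 420.0 CPM (SD, n = 3) in WT at day 0, 7557 ± 2509 CPM at day 14 and 7787 ± 1726 CPM at day 28. In ATLD it was 7526 ± 559 CPM, 8143 ± 945 CPM and 11605 ± 1201 CPM. The ATLD libraries of day 0 all lay above WT of day 0, at 6885 to 7919 CPM against 3780 to 4556 CPM. The spread in WT at day 14 was between the libraries poor in GC-rich genes (the lowest at 5930.4 CPM) and replicate 2 (10447 CPM), and the resequenced run of replicate 1 gave 10864 CPM. The resequenced runs of day 0 and day 28 gave 4928 and 9792 CPM. At day 28 all ATLD libraries, at 10392 to 12793 CPM, lay above the original WT libraries, at 5804 to 8949.6 CPM. The resequenced WT run, from the batch of the ATLD libraries, was nearer to them, at 9792 CPM. The 21 other HIF targets summed to 1486 ± 36.8 CPM in WT at day 0, 3582 ± 60.6 CPM at day 14 and 3253 ± 100.2 CPM at day 28. In ATLD they summed to 1068 ± 19.3 CPM, 1273 ± 28.0 CPM and 1795 ± 40.8 CPM. Car12 and Ndrg1 were the most abundant of these targets in each group and weigh most in the sum. Between day 14 and day 28 in ATLD, mean Ndrg1 went from 166 to 499 CPM and mean Car12 from 204 to 404 CPM. The rise of the ATLD sum between those days was no larger than these changes together. In this sum all later WT libraries lay above all ATLD libraries, and the libraries of WT day 14 poor in GC-rich genes did not stand apart. Single targets did, in both directions. Ero1l was at 243 and 228 CPM in those libraries against 159.9 CPM in replicate 2, and Ddit4 at 151 and 148 CPM against 244 CPM.

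**Figure D5:**
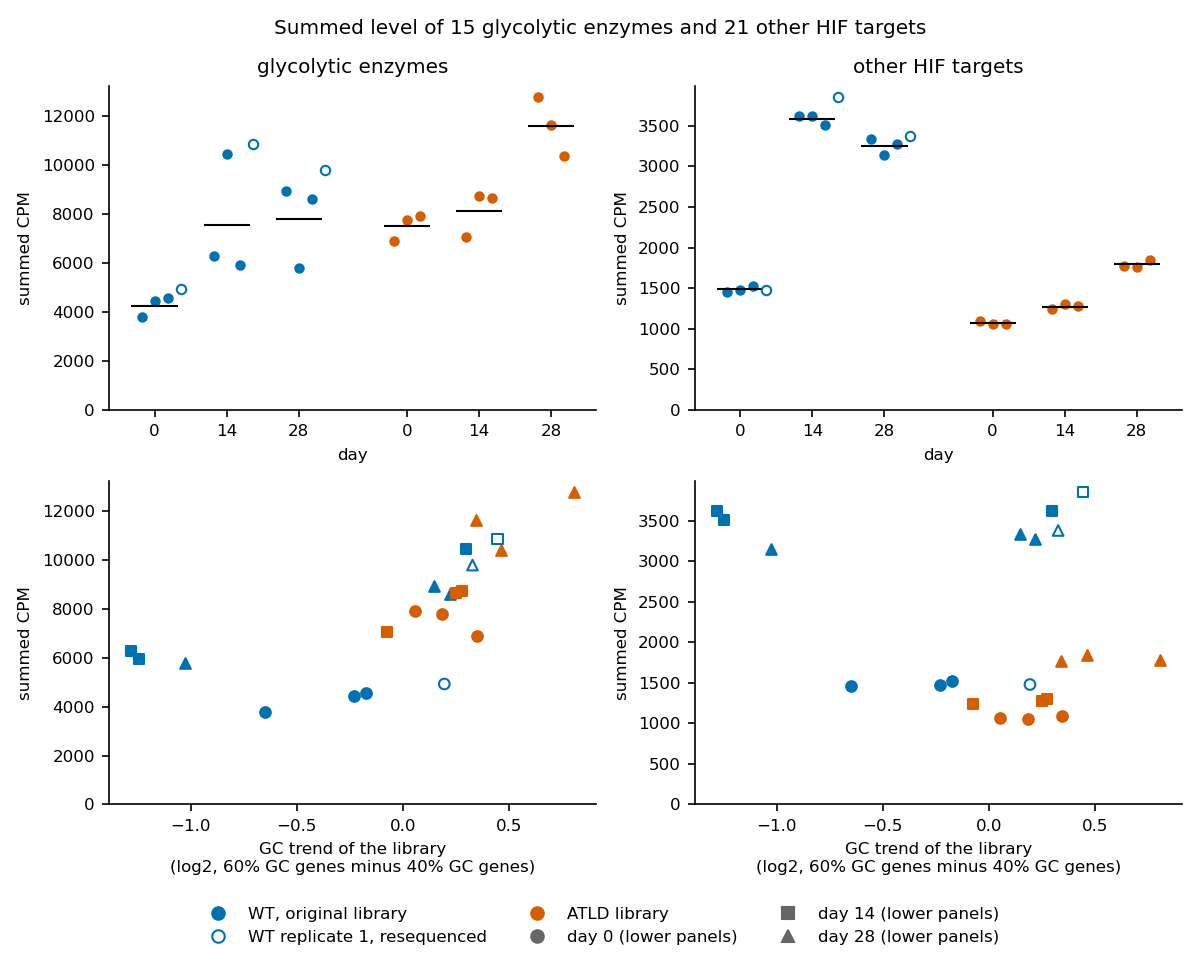
Upper panels: summed CPM of the 15 glycolytic enzymes (left) and the 21 other HIF targets (right) in each library by day, for WT (blue) and ATLD (orange), with lines at the mean of 3 original libraries and open circles for resequenced runs. Lower panels: the same sums against the GC trend of the library (log2 level at 60% GC less that at 40% GC). The enzyme sum in the 3 WT libraries with a trend between -1.28 and -1.03 is below that of the other WT libraries of day 14 and day 28, while the sums of the other targets lie close together.

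Further genes of these pathways were read against the same background, 30.3% of all genes in WT by day 14. Of 14 further components of the HIF pathway, 1 rose in WT by day 14 (Hif3a, 3.02 ± 0.57) and 2 fell (Arnt2, -0.91 ± 0.16, and Cited2, -0.34 ± 0.11). Hif3a was scarce, at 0.0067 CPM per kilobase in WT at day 0 and 0.0592 at day 14, so its value is a description. Its mean share of HIF alpha transcripts in the original WT libraries was 0.0157% at day 0 and 0.0973% at day 14. The resequenced runs gave 0.0738% and 0.0924%. Of 14 other glycolysis genes tested, 2 rose and 1 fell in WT by day 14. Slc16a1 (MCT1, a lactate transporter) rose (0.52 ± 0.11) and Slc2a4 (GLUT4) fell (-1.09 ± 0.17). Of 12 genes that control the entry of pyruvate into mitochondria, Pdk3 rose (0.58 ± 0.14) and Pdk2 and Pdk4 fell (-0.74 ± 0.14 and -0.79 ± 0.26). Of these 12, 9 were higher and 1 lower in ATLD than in WT at day 0 and again at day 28, where 26.1% and 29.3% of all genes were called as higher. Of 11 genes of the pentose phosphate path and gluconeogenesis tested, G6pdx and Fbp1 rose and Pck2 fell in WT by day 14. The median log2 changes of these 4 lists in WT at day 14 lay between -0.18 and 0.17, beside 0.01 over all genes.

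A list of 30 more genes known as HIF targets, of which 29 were tested, held changes in both directions. In WT, 10 rose and 3 fell by day 14 (background 15.2% higher and 15.1% lower), with a median log2 change of 0.24. Ak4 (a mitochondrial adenylate kinase, 3.06 ± 0.12), Cox4i2 (a hypoxic subunit of complex IV, 2.27 ± 0.27) and Fam162a (2.0003 ± 0.17) were among those that rose. In ATLD, 6 rose and 5 fell (background 5.18% higher and 6.49% lower), among them Ak4, which fell by 0.89 on the log2 scale. The difference of the changes at day 14 was lower for 8, led by Ak4 (-3.95 ± 0.17, adjusted p = 2.5e-11), and higher for 5. The background there was 10.6% lower and 10.8% higher. Of 12 genes of the integrated stress response, 2 rose and 2 fell in WT by day 14 (background 30.3%), and 3 fell in ATLD (background 11.7%).

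The resequenced runs of WT replicate 1 gave a second reading of the WT time course, with 1 library a day and no test of their own. Over the 47 genes the resequenced level differed from the original by a median of 0.14 on the log2 scale at day 0, 0.34 at day 14 and 0.03 at day 28. The original library of day 14 is one of those poor in GC-rich genes. Vegfa was at 18.9, 336 and 277 CPM in the resequenced runs of day 0, day 14 and day 28, and Bnip3 at 5.73, 70.4 and 52.8 CPM. Slc16a3 was at 0.694, 78.2 and 48.4 CPM. Hif1a was at 139, 191 and 168 CPM, a narrower range than in the original libraries. Aldoc was at 309, 195 and 185 CPM, again lower at both later days.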

How the data were processed

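The authors deposited raw read counts per gene, made with featureCounts for mm10 per the submitters' processing notes, which also name DESeq2. For the aligner, the annotation and the strand setting, nothing is given in the sources used here. The kit is stranded, per the labels, and the deposited gene length, also made by the authors, gives levels per kilobase. All 55536 gene IDs were named from GENCODE vM21, and 0 per-sample columns were unmapped.

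Time courses and their differences were fitted on the 18 original libraries with 1 mean per group, and comparisons of genotypes on all 21 with a batch term. Each resequenced run counts there as a library of its own although its culture is that of the original, which leaves 14 residual degrees of freedom. Only the limma alternative treats the culture as a random block. Counts were TMM-scaled, filtered with filterByExpr (minimum count 10, minimum total 15) and tested two-sided with edgeR 4.0.16 in R 4.3.3 (quasi-likelihood, Benjamini-Hochberg, threshold 0.05), with limma 3.58.1 and DESeq2 1.42.0 for alternatives and pandas 2.3.3, SciPy 1.17.1 and matplotlib 3.10.9 for the rest. The scripts were tested on simulated counts. Alternatives changed the scaling, filter, tool, batch handling and libraries used, removed the GC trend (lowess, span 0.3) or added the replicate number as a block.

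At depths of 30905703 counts and more, counting error matters mainly for genes near or under 1 CPM, and elsewhere the spread between libraries limits precision. Same-numbered libraries of a genotype did not deviate together (correlations of -0.661 to 0.280, with 4 of 18 over 0.1), so numbers were not taken as pairs. Values in every library are given for genes among the 6 largest rises or falls of a comparison that were called without overlap, and for Hif1a, Epas1, Vhl and Egln3. The 47 genes and all lists were chosen with earlier results of these data known. Gene models are those of mm10, and sequences are from RefSeq on GRCm38.p6, where 9 of the 47 genes had no window. Some genes of the further lists are not reported here.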

Additional observations from a re-analysis of the deposited data

Results flagged for a closer look

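These results are listed because the test of the difference between the genotypes in their change from day 0 (the ATLD change less the WT change, edgeR, adjusted p under 0.05) passed. All values are on the log2 scale, and a negative value means a lower change in ATLD. Both days are set against the same WT and ATLD libraries of day 0. Values of Ndufa4l2, Slc2a3 and Loxl2 are a description only, since these genes passed the low-count filter through the groups in which they are high.

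At day 14 these were 31 of the 47 genes, 29 lower and 2 higher, where 21.3% of all genes tested were called. Among the regulators, the day 14 change was lower in ATLD for Egln3 (-1.73), Egln1 (-1.32) and Hif1a (-1.06). Among the transporters, the day 14 change was lower in ATLD for Slc16a3 (-5.39) and Slc2a3 (-2.17). Among the glycolytic enzymes, the day 14 change was lower in ATLD for Pgk1 (-1.97), Hk2 (-1.90), Pfkp (-1.82), Pgam1 (-1.21), Tpi1 (-1.20) and Gpi1 (-0.81). The next difference in size was that of Ldha (-0.60). It was higher for Aldoc (1.23). Among the flux kinases, the day 14 change was lower in ATLD for Pdk1 (-1.62). Among the other HIF targets, the day 14 change was lower in ATLD for Ndufa4l2 (-9.31), Vegfa (-4.06), Bnip3 (-2.96), Ankrd37 (-2.88), Loxl2 (-2.27) and Ero1l (-2.11). Next in size were the differences of P4ha1 (-2.02), P4ha2 (-1.69), Car9 (-1.45), Angptl4 (-1.21), Car12 (-1.20) and Ndrg1 (-1.07). Smaller differences in the same direction were those of Higd1a (-1.04), Bnip3l (-0.83), Kdm3a (-0.62) and Mxi1 (-0.54). The day 14 change was higher in ATLD for Stc2 (0.81). Without the 3 libraries poor in GC-rich genes, Bnip3l (-0.45, adjusted p = 0.14) and Kdm3a (-0.36, adjusted p = 0.10) were not called at day 14. The call of Ldha was lost with the compared groups alone and with the replicate number as a block.

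At day 28 these were 28 of the 47 genes, 25 lower and 3 higher, where 27.5% of all genes tested were called. Among the regulators, the day 28 change was lower in ATLD for Egln3 (-1.58), Egln1 (-1.03) and Hif1a (-0.94). Among the transporters, the day 28 change was lower in ATLD for Slc16a3 (-6.76) and Slc2a3 (-2.89). Among the glycolytic enzymes, the day 28 change was lower in ATLD for Hk2 (-2.04), Pfkp (-1.77), Pgk1 (-1.56), Tpi1 (-1.17), Gpi1 (-0.97) and Pgam1 (-0.78). It was higher for Aldoc (1.98). Among the flux kinases, the day 28 change was lower in ATLD for Pdk1 (-1.59). Among the other HIF targets, the day 28 change was lower in ATLD for Ndufa4l2 (-8.83), Vegfa (-4.10), Bnip3 (-2.88), Ankrd37 (-2.72), Loxl2 (-2.65) and P4ha1 (-2.14). Next in size were the differences of P4ha2 (-2.01), Ero1l (-1.87), Angptl4 (-1.52), Higd1a (-0.82), Car9 (-0.71) and Bnip3l (-0.60). The difference of Kdm3a was -0.60. The day 28 change was higher in ATLD for Ndrg1 (0.71) and Stc2 (0.75). The day 28 call of Bnip3l was lost without the 3 libraries poor in GC-rich genes and with the replicate number as a block (adjusted p = 0.061 in each).

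The largest values, those of Ndufa4l2, rest on 19 counts in all over the 3 WT libraries of day 0 and depend on the prior count of the fit. Those of Slc16a3 also start from a WT level under 1 CPM. Slc2a3 and Loxl2 passed the low-count filter only through WT groups, and Ndufa4l2 was under its level in WT at day 0. The values of these genes are therefore given as a description.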

How the results depend on the processing

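No call among the 47 genes changed direction under any alternative. Of the values of called genes, 2422 stayed past the threshold and 91 did not under alternatives that kept all replicates or left out the 3 libraries poor in GC-rich genes, and 1902 did and 150 did not when 1 replicate was left out. The counts called at day 14 and day 28 against day 0, for the differences between time courses and for the genotypes at day 14 and day 28 stayed within 1.5 times under all alternatives run. Genes called under every alternative were 32 of 40 in WT at day 14, 34 of 39 at day 28, 10 of 12 and 20 of 26 in ATLD, 0 of 3 in WT and 4 of 12 in ATLD between day 14 and day 28, 27 of 31 and 26 of 28 for the difference between time courses, and 12 of 25, 28 of 34 and 29 of 33 for the genotypes at day 0, 14 and 28.

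Between day 14 and day 28 in WT, 3 genes were called. The count was 1 without the low-count filter, 5 with the GC trend removed, and 0 without the 3 libraries poor in GC-rich genes, with the compared groups alone or with the resequenced runs in place of the originals. In these 3 edgeR fits 7, 8 and 10 of the 47 had an unadjusted p under 0.05, and DESeq2 called 4. With the replicate number as a block the count was also 0 (10 at an unadjusted p under 0.05). Elsewhere the block gave 38 and 38 genes in WT, 12, 25 and 10 in ATLD, 30 and 27 for the difference between time courses and 21, 34 and 31 for the genotypes, and 1 of 18 libraries correlated best with its own number. Leaving out 1 replicate gave 0 to 18 genes for WT between day 14 and day 28, 7 to 10 for ATLD (12 with all) and 14 to 24 for the genotypes at day 0 (25 with all). With the compared groups alone, ATLD between day 14 and day 28 gave 21. The causes were not tested.

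Over all genes, WT day 28 against day 14 called 169, DESeq2 312, the fit with the GC trend removed 297, that with the block 100 and that without the 3 libraries 38. The compared groups alone called 0 (1114 at an unadjusted p under 0.05), the resequenced runs in place 94, all 21 libraries with a batch term 354, and fits without 1 replicate 62 to 3817. ATLD at day 14 called 3502 with the GC trend removed, against 2180. Shares of enzyme families without division by length moved in 24 of 72 values. Depth limits Loxl2, Slc2a3, Adm and, in WT at day 0, Ndufa4l2 and Slc16a3.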
